A study of Mus musculus with 3 samples.

Results

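The S100 genes S100a8, S100a9, S100a4, S100a6, S100a10 and S100a11 were followed across the cell clusters of mouse bone marrow granulocyte-monocyte progenitors. They are 6 of the 28692 gene IDs in the count table, chosen by name, with S100a8 and S100a9 set against members counted in early and monocytic clusters. The cells came from crushed hindlimb bones of wild-type C57BL/6 mice, were enriched with CD117 beads, stained with antibodies and sorted as "Modified GMP". A female and a male library of 3' messenger RNA were made on the 10x Genomics v2 platform, with 10000 cells loaded for each, and a pooled library held the DNA tags of 4 antibodies (CD117, CD11b, Ly-6C and Ly-6G). All cells were wild type and untreated, so the comparisons lie between clusters, and between cells with more and with less of a surface protein. The labels do not give the sort gate, the age of the mice or the number of mice behind each library.

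S100 proteins are small calcium-binding proteins that work mostly as dimers and change shape when calcium binds their EF-hands. S100A8 and S100A9 join to form calprotectin, which is stored in the cytosol of neutrophils, withholds zinc and manganese from microbes, and after release acts on the receptors TLR4 and RAGE. The other members have partners inside the cell: S100A4 binds non-muscle myosin IIA, S100A6 binds the calcyclin-binding protein, S100A10 forms a complex with annexin A2, and S100A11 binds annexin A1.

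All 6 genes lie on mouse chromosome 3 (coordinates from RefSeq, GRCm38.p6). S100a4 spans chr3:90603770-90606045, S100a6 chr3:90612894-90614414, S100a8 chr3:90669071-90670034 and S100a9 chr3:90692630-90695721. S100a11 (chr3:93520496-93526288) and S100a10 (chr3:93555117-93564645) lie apart from these 4. The starts of 5 of the 6 genes are printed from RefSeq, 90 bases before to 10 bases after the listed start, because the genes divide below into granulocytic and non-granulocytic patterns. Capitals mark TATAAA and GGGCGG.
S100a8, chr3:90668981-90669080, plus strand: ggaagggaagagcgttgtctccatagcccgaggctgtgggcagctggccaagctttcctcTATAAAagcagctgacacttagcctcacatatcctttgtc
S100a9, chr3:90695712-90695811, minus strand: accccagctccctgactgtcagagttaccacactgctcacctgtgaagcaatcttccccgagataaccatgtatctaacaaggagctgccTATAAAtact
S100a4, chr3:90603680-90603779, plus strand: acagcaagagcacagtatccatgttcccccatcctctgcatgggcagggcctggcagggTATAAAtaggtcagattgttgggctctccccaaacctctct
S100a6, chr3:90612804-90612903, plus strand: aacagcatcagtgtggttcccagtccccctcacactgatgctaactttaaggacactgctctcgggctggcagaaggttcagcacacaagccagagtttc
S100a11, chr3:93520406-93520505, plus strand: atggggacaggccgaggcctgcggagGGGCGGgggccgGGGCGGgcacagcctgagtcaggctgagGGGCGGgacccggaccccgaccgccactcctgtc

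TATAAA stood once in the windows of S100a8, S100a9 and S100a4, with both strands searched. Its first base lay 30 bases before the listed start of S100a8, 31 before that of S100a4, and on the listed start of S100a9. GGGCGG stood 3 times in the window of S100a11 and in none of the other 4. Of 32851 promoter windows of the same length, 5.43% held TATAAA and 24.6% held GGGCGG. TTGCNNAA, a form of the C/EBP motif, was found in none of these 5 windows and in 3.28% of all. These are matches of letters and say nothing of whether a factor bound there.

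The count table held unique molecular identifiers (UMIs, 1 for each captured RNA molecule) for 4336 female and 6796 male cells in 17 clusters named by the authors. The libraries held 91448433 UMIs (female) and 124967351 UMIs (male), and the median cell had 21202 and 18687. Levels are given as CPM, the UMIs of a gene per 1000000 UMIs of a cluster in a library. Median UMIs per cell lay between 5057 and 27908 over the clusters, and were lowest in Myelo-4. How the authors made the clusters is not given in the labels, and where they used the RNA, the members' differences between clusters may partly have made the clusters. In the cells, 45 barcodes occurred in both libraries, and no doublet caller was run. Dendritic marker genes summed to 43022 CPM (female) and 33904 CPM (male) in the DC cluster, with 1 of the 4 genes at 0 in each library. Secondary granule genes summed to between 46445 and 136183 CPM in the Myelo clusters. Monocyte markers summed to between 1439 and 2442 CPM in Mono, MDP and cMoP, against 77 to 420 CPM in Multi-Lin, HSCP-1 and HSCP-2. They were not limited to the monocytic clusters. Their sum was highest in DC, at 2549 CPM (female) and 3254 CPM (male), and reached 904 and 936 CPM in MP.

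S100a8 and S100a9 climbed from Gran-1 through Gran-2 to the Myelo clusters. S100a8 stood at 4243 CPM (female) and 4105 CPM (male) in Gran-1, at 21190 and 22225 CPM in Gran-2, and at 82218 and 82405 CPM in Myelo-1. It went on to 178972 and 173307 CPM in Myelo-2, 207831 and 178403 CPM in Myelo-3, and 219795 and 210251 CPM in Myelo-4. The libraries' values did not overlap between Gran-1, Gran-2, Myelo-1 and Myelo-2, while those of Myelo-2 and Myelo-3 overlapped. S100a9 stood at 2421 and 1736 CPM in Gran-1, 9681 and 10431 CPM in Gran-2, 52231 and 54137 CPM in Myelo-1, and 136110 and 136323 CPM in Myelo-4. Both calprotectin genes together made up 3.09% (female) and 3.27% (male) of all UMIs in Gran-2, and 35.6% and 34.7% in Myelo-4.

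Outside Gran and Myelo the calprotectin genes varied far less than within them. Over 11 clusters S100a8 ranged from 2346 to 3165 CPM (female) and from 1945 to 3496 CPM (male). Mono stood at 3165 and 2697 CPM, above MDP, HSCP-1, HSCP-2 and Multi-Lin in both libraries. The Eryth cluster, of erythroid marker genes, had 2449 CPM (female) and 2978 CPM (male), and Meg, of megakaryocyte marker genes, had 2346 and 3496 CPM. The other 9 clusters stood above Eryth and Meg in the female library, at 2523 to 3165 CPM, and below them in the male, at 1945 to 2697 CPM. The male order of these sums was not that of the median cells, given with the single cells below. How much of the S100a8 in the 11 clusters came from free RNA was not tested. S100a9 stood at 1792 (female) and 1945 (male) CPM in Eryth and at 1322 to 2395 CPM over the 11 clusters. In Gran-1, S100a8 stood above every cluster outside Gran and Myelo in both libraries. S100a9 in Gran-1 did not, since its male value of 1736 CPM lay within the male range of those clusters, which reached 2162 CPM.

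**Figure D1:**
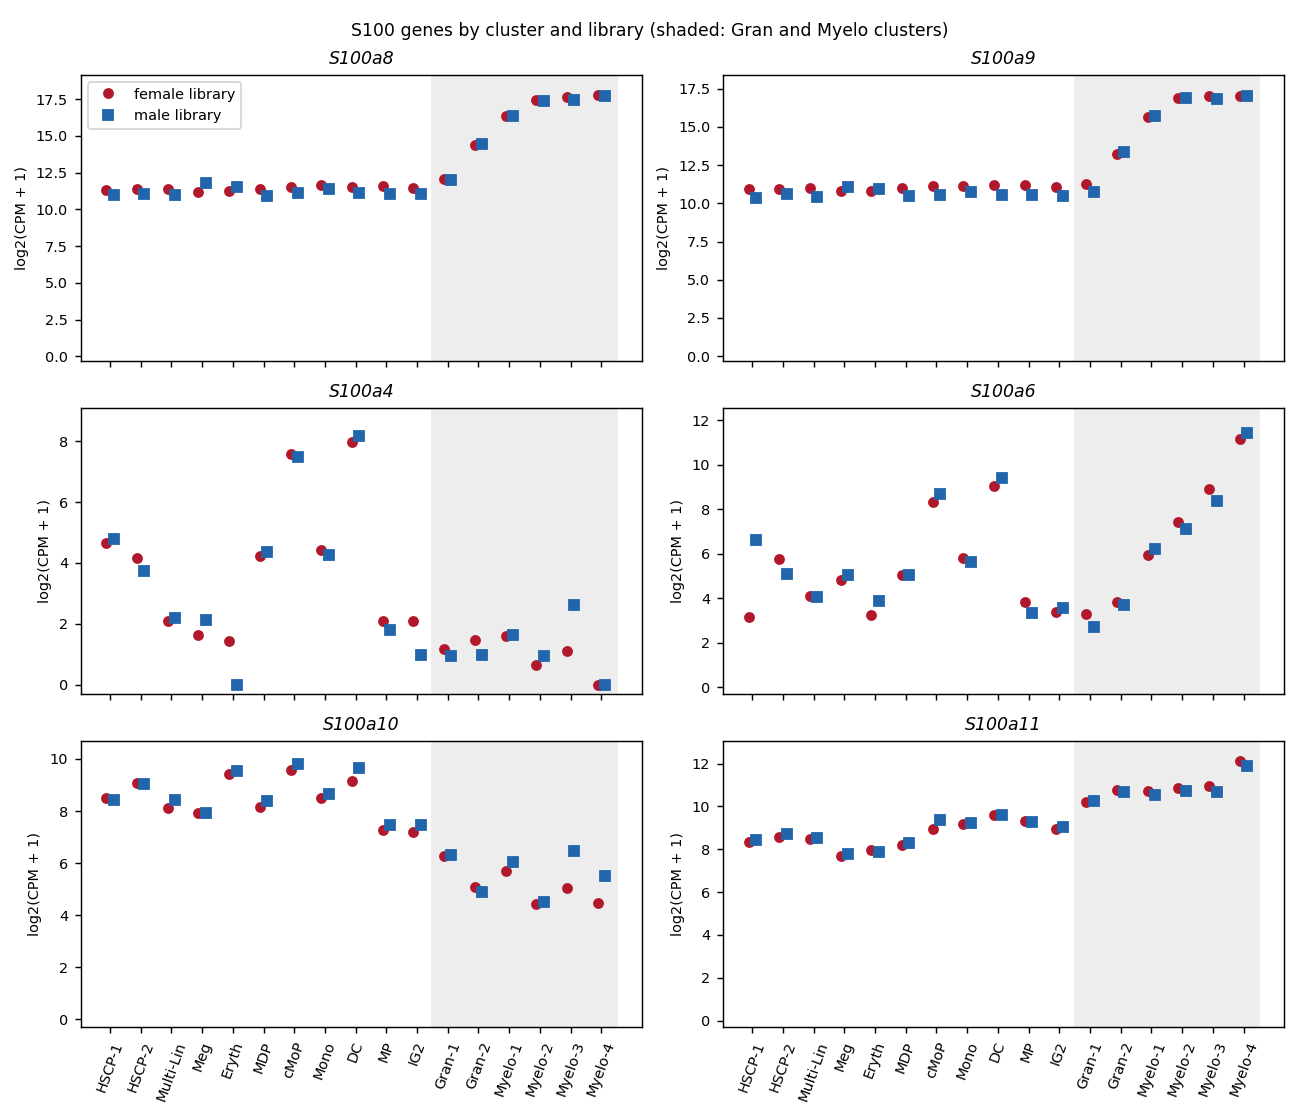
Level of each S100 gene, as log2(CPM + 1), in the 17 clusters (x axis) for the female (circles) and the male library (squares), with Gran and Myelo clusters shaded. S100a8 and S100a9 vary far less outside the shaded clusters than within them, where they climb to 219795 and 136110 CPM in female Myelo-4. S100a4 is highest in DC and cMoP, and S100a10 is highest in cMoP and then Eryth. S100a6 is highest in Myelo-4, and S100a11 is higher in the shaded clusters than elsewhere.

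Single cells showed the same steps. The median cell gave 0.345% (female) and 0.262% (male) of its UMIs to S100a8 in Gran-1, 1.90% and 2.00% in Gran-2, and 7.92% and 7.55% in Myelo-1. In Myelo-4 the median was 21.7% (female) and 21.8% (male). In Gran-1, 31 of 832 female cells (3.73%) and 121 of 1541 male cells (7.85%) gave over 1% of their UMIs to S100a8. In Gran-2, 302 of 355 female cells (85.1%) and 529 of 598 male cells (88.5%) did. The cells of Gran-2 were spread between a 5th and a 95th percentile of 0.712% and 4.41% (female) and of 0.779% and 4.56% (male).

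Outside Gran and Myelo the median cell was between 0.236% and 0.304% in the female and between 0.177% and 0.241% in the male library, and the female median was higher in all 11 clusters. The lowest medians were those of Meg, at 0.236% (female) and 0.177% (male). Eryth, at 0.243% and 0.187%, was next in the female library, and in the male MDP was at 0.186%. The pooled CPM was higher in the female library in 9 of 11. The exceptions were Meg and Eryth, where 3 of 85 and 1 of 43 male cells exceeded 1% and the highest male cells reached 3.94% and 3.06%. The highest cell outside Gran and Myelo was a male Mono cell at 5.16%.

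**Figure D2:**
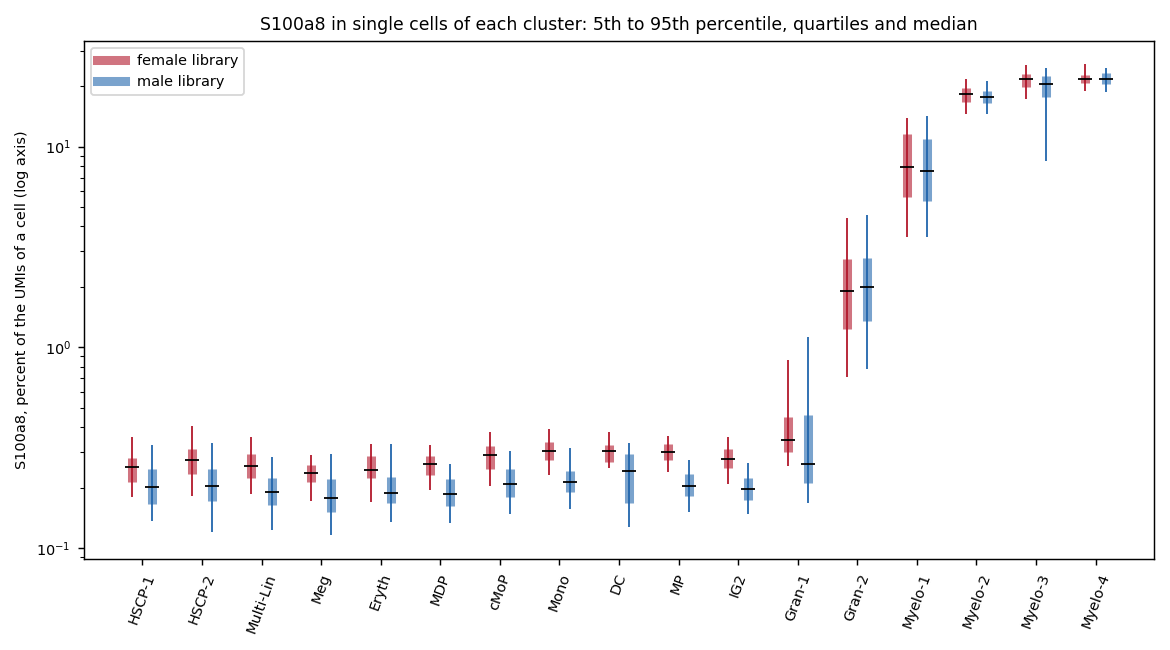
Percent of the UMIs of a cell that belong to S100a8 (log axis) in each cluster, female left of male: thin lines run from the 5th to the 95th percentile of cells, thick bars between the quartiles, and the black tick is the median. The medians lie at 0.177% to 0.304% in the 11 clusters outside Gran and Myelo, at 1.90% (female) and 2.00% (male) in Gran-2, and at 21.7% and 21.8% in Myelo-4, and the male Myelo-3 line reaches down to 8.45%.

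Male Myelo-3 held cells with little S100a8 for that cluster. Under 12% of UMIs (a limit chosen after the values were seen) were given to S100a8 by 10 of 426 female and 70 of 529 male Myelo-3 cells. The 70 male cells had a median of 13441.5 UMIs and a median CD117 tag count of 379, against 8181 UMIs and 65 tags in the other 459. Their S100a10 was 290.6 CPM, against 39.2 CPM in the others, and their Camp, a secondary granule gene, was 29315 CPM, against 67976 CPM. Whether these barcodes held more than 1 cell was not tested.

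S100a8 outnumbered S100a9 in every cluster, and by most in Gran-2 and in male Gran-1. The ratio of S100a8 to S100a9 UMIs was 2.19 (female) and 2.13 (male) in Gran-2, against 1.49 to 1.61 (female) and 1.45 to 1.54 (male) over the Myelo clusters. It lay between 1.25 and 1.38 in the female and between 1.35 and 1.62 in the male library outside Gran and Myelo. In Gran-1 the libraries stood apart, at 1.75 (female) and 2.37 (male). Within single Gran-2 cells with at least 20 UMIs of the pair, the median share of S100a8 was 71.5% (female) and 71.3% (male), against 61.2% and 60.4% in Myelo-1.

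S100a8 also ran ahead of the granule gene Camp, which encodes the antimicrobial peptide cathelicidin. In Gran-2 there were 14.1 (female) and 14.5 (male) S100a8 UMIs for each Camp UMI, against 2.87 to 4.06 (female) and 2.52 to 4.24 (male) in Myelo. Clusters outside Gran and Myelo had 2.84 to 3.55 (female) and 3.02 to 4.60 (male), a span close to that of Myelo. Camp itself stood at 1502 CPM (female) and 1530 CPM (male) in Gran-2, and at 28431 and 28879 CPM in Myelo-1. The order of levels between genes can shift with how well a 3' end is captured, so only the change of the ratio over clusters is described.

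**Figure D3:**
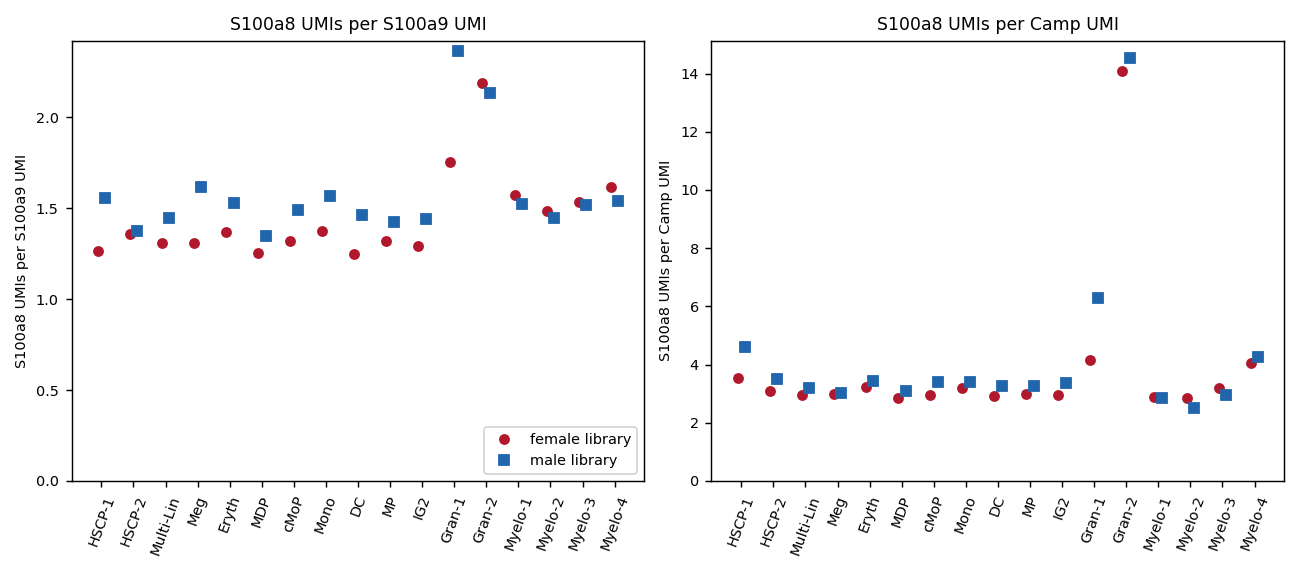
S100a8 UMIs per S100a9 UMI (left) and per Camp UMI (right) in each cluster for the female (circles) and the male library (squares). Gran-2 stands at 2.19 and 2.13 on the left and at 14.1 and 14.5 on the right, above all Myelo clusters and all clusters outside Gran and Myelo.

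Set against other clusters, Gran-2 carried more S100a8, S100a9 and S100a11 and less S100a10. These contrasts chose the members' grouping and are given without a test. Against the early clusters (Multi-Lin, HSCP-1 and HSCP-2 summed), the log2 fold change in Gran-2 was 3.57 for S100a8, 2.92 for S100a9 and 2.55 for S100a11. It was -3.14 for S100a10, -1.65 for S100a4 and -0.34 for S100a6. Against the monocytic clusters (Mono, MDP and cMoP summed), it was 3.10 for S100a8, 2.51 for S100a9, 1.75 for S100a11, -2.49 for S100a6, -3.61 for S100a10 and -4.52 for S100a4. Against Gran-1 it was 2.47 for S100a8 and 2.38 for S100a9, with S100a11 at 0.57, S100a6 at 0.93, S100a4 at 0.35 and S100a10 at -1.24. S100a6 and S100a4 thus had the opposite sign to their values against the early and monocytic clusters, at levels of 13.1 CPM or less in both Gran clusters. Of all genes tested by edgeR's quasi-likelihood test (Benjamini-Hochberg adjusted p under 0.05), 66.2%, 54.8% and 35.3% passed in these 3 comparisons (31.8%, 27% and 18.8% higher in Gran-2), so a call there is common.

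The calprotectin genes' pooled share of the UMIs was highest in Myelo-4, while their UMIs per cell were not. The median cell gave 21.6% (female) and 20.4% (male) of its UMIs to S100a8 in Myelo-3, and 21.7% and 21.8% in Myelo-4. To S100a9 it gave 13.9% and 13.6% in Myelo-3, and 13.8% and 14.5% in Myelo-4, so the female S100a9 median did not rise. A mean cell held 516.0 S100a8 UMIs (female) and 427.8 (male) in Gran-2, 2052 and 1707 in Myelo-1, and 2783 and 2495 in Myelo-2. In Myelo-4 it held 1358 and 1171. Myelo-4 cells had medians of 5844 (female) and 5057 (male) UMIs in all, against 23947.5 and 19945 in Myelo-1. S100a11 had 42.1 (female) and 31.6 (male) UMIs per cell in Gran-2, 19.7 and 16.0 in Myelo-3, and 27.2 and 21.1 in Myelo-4. Its UMIs per cell in Myelo-4 were thus above Myelo-3 but below Gran-2, although its CPM was highest in Myelo-4. S100a6 was highest in Myelo-4 on both scales, with 14.0 (female) and 15.3 (male) UMIs per cell against 1.52 and 1.50 in Myelo-1. Less RNA per cell and less RNA captured cannot be told apart here.

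**Figure D4:**
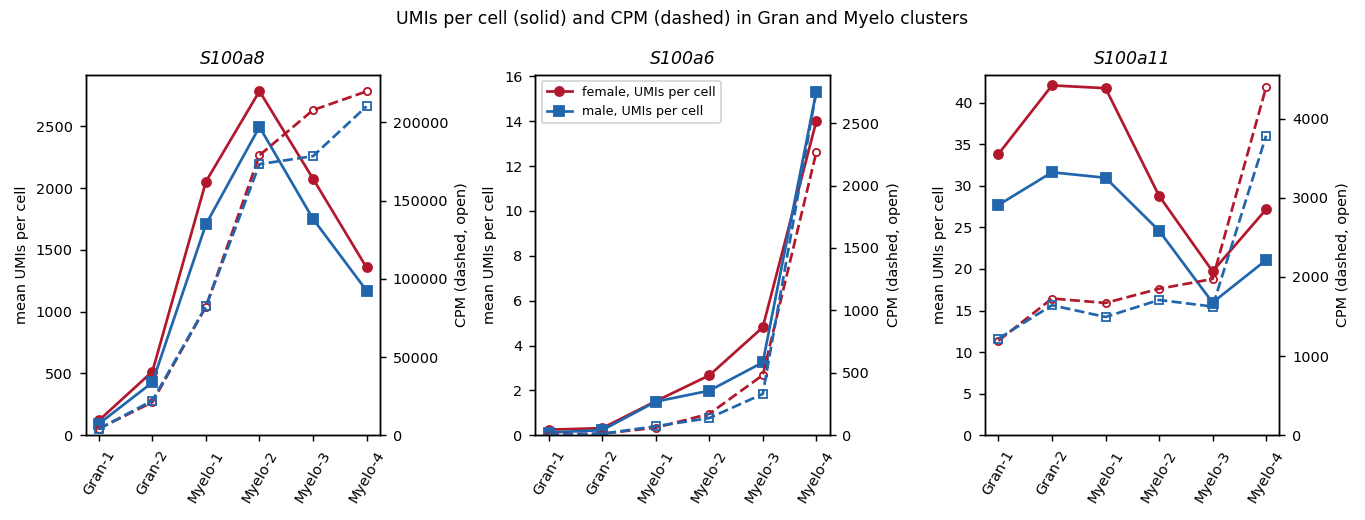
Mean UMIs per cell (solid lines, filled points, left axes) and CPM (dashed lines, open points, right axes) of S100a8, S100a6 and S100a11 over the Gran and Myelo clusters, female in circles and male in squares. S100a8 UMIs per cell are highest in Myelo-2 (2783 female, 2495 male) while its CPM is highest in Myelo-4, and S100a6 is highest in Myelo-4 on both scales.

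S100a11, which binds annexin A1, followed the granulocytic course at a lower level. It stood at 1195 CPM (female) and 1222 CPM (male) in Gran-1, 1728 and 1643 CPM in Gran-2, and 1495 to 1974 CPM over Myelo-1 to Myelo-3. In Myelo-4 it reached 4397 CPM (female) and 3784 CPM (male). Every cluster outside Gran and Myelo was lower, from 202.4 CPM in female Meg to 779.2 CPM in female DC. After thinning each cell to 4000 UMIs, 99.4% of female and 99.8% of male Gran-2 cells had a S100a11 UMI, against 53.5% and 57.6% in Meg. S100a11 has an annotated pseudogene copy, S100a11-ps, and how reads shared with it were counted is not stated in the labels.

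S100a6 had separate high points, Myelo-4 and the DC and cMoP clusters. It stood at 2267 CPM (female) and 2752 CPM (male) in Myelo-4, 482.1 and 331.2 CPM in Myelo-3, and 60.9 and 72.5 CPM in Myelo-1. In DC it had 529.1 CPM (female) and 687.3 CPM (male), and in cMoP 321.7 and 416.9 CPM. Gran-1, with 8.91 and 5.50 CPM, and Gran-2, with 13.1 and 11.9 CPM, were near Eryth at 8.62 and 13.7 CPM. S100a6 was therefore neither an early nor a monocytic gene alone in these data. At 4000 UMIs per cell, 93.5% of female and 89.3% of male Myelo-4 cells had a S100a6 UMI (exact Clopper-Pearson 95% intervals 78.6% to 99.2% and 71.8% to 97.7%), against 2.44% and 4.65% of Eryth cells. Without thinning the Eryth shares were 12.2% and 4.65%, and the Myelo-4 shares were the same. Intervals and floors cover counting error only. The late neutrophil genes Mmp8, Mmp9, Cxcr2 and Retnlg summed to 5630 CPM (female) and 6010 CPM (male) in Myelo-4, against 293 and 254 CPM in Myelo-3.

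HSCP-1 split by library in S100a6, at 7.98 CPM in 14 female and 98.3 CPM in 10 male cells. These values rest on 1 UMI (female) and 11 UMIs (male). Dendritic marker genes summed there to 319 CPM (female) and 2215 CPM (male). Their part in the S100a6 difference was not tested.

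S100a4, which binds myosin, had its highest CPM in DC and cMoP. It stood at 250.1 CPM (female) and 288.2 CPM (male) in DC and at 189.4 and 179.3 CPM in cMoP. HSCP-1 followed at 23.9 and 26.8 CPM, resting on 3 UMIs in each library, then Mono at 20.3 and 18.2, MDP at 17.9 and 19.5, and HSCP-2 at 17.1 and 12.2 CPM. The other 11 clusters did not exceed 5.20 CPM. In CPM, DC and cMoP did not overlap, nor did HSCP-2 and Multi-Lin, while Mono and MDP did. The DC values rest on 26 UMIs in 11 female cells and 52 UMIs in 22 male cells. By the median cell cMoP stood above DC. The median cMoP cell gave 0.0132% (female) and 0.0108% (male) of its UMIs to S100a4, and the median DC cell 0.0115% and 0%.

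At 4000 UMIs per cell, 12 of 39 female (30.8%) and 34 of 97 male (35.1%) cMoP cells had a S100a4 UMI, against 1.16% and 1.18% of Meg cells. In HSCP-2 the thinned shares were 5.86% in each library (exact intervals 3.32% to 9.48% female and 3.45% to 9.22% male). Without thinning, cMoP stood at 84.6% and 76.3%, HSCP-2 at 14.1% and 8.97%, and Meg at 3.49% and 1.18%. None of 31 female and 28 male Myelo-4 cells had a S100a4 UMI, which allows a share of up to 9.68% and 10.7% of cells with a UMI at this depth and sets no limit on cells expressing the gene. The whole S100a4 count was 1526 UMIs, the lowest of the 6 genes.

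S100a10, the annexin A2 partner, ran opposite to calprotectin. It was highest in cMoP, with 767.3 CPM (female) and 903.6 CPM (male). Eryth followed with 691.6 and 744.4 CPM, DC with 567.6 and 809.2 CPM, and HSCP-2 with 534.4 and 528.7 CPM. Gran-1 had 76.5 and 77.9 CPM, Gran-2 33.1 and 28.7 CPM, and Myelo-2 20.6 and 21.8 CPM. Eryth, an erythroid cluster, ranked directly after cMoP, so the gene was not limited to early and monocytic clusters. Every Gran and Myelo cluster was below every other cluster in both libraries. The libraries' values overlapped in 6 of the 16 pairs of clusters next to each other in rank, so their order was not resolved. These pairs were Eryth and DC, MDP and Multi-Lin, MP and IG2, Gran-1 and Myelo-3, Myelo-3 and Myelo-1, and Myelo-4 and Gran-2.

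Over the means of 17 clusters, log2(CPM + 1) of S100a8 had a Pearson r of 0.997 with S100a9, 0.85 with S100a11, 0.55 with S100a6, -0.50 with S100a4 and -0.84 with S100a10. The clusters share 2 libraries, so these values describe the pattern and carry no test. Among 2235 genes with a mean of at least 50 CPM, the patterns most like S100a8 after S100a9 were Wfdc21 (r = 0.99), Ppp1r2 (0.98), Chil1, a chitinase-like protein gene (0.98), and Lrg1, a secreted glycoprotein gene (0.98). For S100a4 they were the lysosomal genes Ctss (0.94) and Psap (0.93), the integrin gene Itgb7 (0.90) and the annexin genes Anxa5 and Anxa6 (0.88 each).

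The genes most like S100a6 were Lgals3, which encodes galectin-3 (r = 0.94), Actb (0.92), Arpc5 (0.91), Degs1 (0.91) and Gabarap (0.90). For S100a10 they were the adaptor gene Lat2 (0.92), the peroxiredoxin gene Prdx4 (0.92), Arid1a (0.90), Smim20 (0.90) and Selenow (0.89). For S100a11 they were the leukotriene receptor gene Ltb4r1 (0.96), Arhgdib (0.96), Cdk2ap2 (0.95), its partner gene Anxa1 (0.94) and Glrx (0.94).

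All 6 members were higher in the summed monocytic than in the summed early clusters by edgeR's quasi-likelihood test. Of all genes tested, 59.4% passed and 28.9% were higher, so passing was common. The clusters may rest on the same RNA, and a call then tells how alike the libraries were, not that the clusters differ. S100a4 averaged 34.8 ± 4.63 CPM in monocytic and 4.88 ± 0.470 CPM in early cells (SD, n = 2 libraries each, scaled by edgeR's TMM factors). Its log2 fold change was 2.85 (SE 0.11). S100a6 averaged 81.3 ± 14.6 CPM in monocytic and 18.9 ± 2.24 CPM in early cells, a log2 fold change of 2.12 (SE 0.081). S100a11 stood at 0.79, S100a10 at 0.46, S100a8 at 0.46 and S100a9 at 0.40. Without the library term S100a9 did not pass. Without TMM factors the log2 fold changes were 2.64 for S100a4, 1.92 for S100a6, 0.59 for S100a11, 0.25 for S100a10, 0.26 for S100a8 and 0.20 for S100a9. MDP did not share the rise of S100a11, at 293.8 CPM (female) and 316.2 CPM (male), against 327.3 to 384.3 and 348.4 to 421.1 CPM over the 3 early clusters. For S100a10, MDP had 282.4 and 336.8 CPM and Mono 361.6 and 402.8 CPM, against 534.4 and 528.7 CPM in HSCP-2. For S100a8, MDP had 2619 and 1945 CPM, against 2523 to 2720 and 2017 to 2120 CPM over the early clusters. S100a4 had 189.4 and 179.3 CPM in cMoP but 20.3 and 18.2 in Mono and 17.9 and 19.5 in MDP. Among early clusters it had 23.9 and 26.8 CPM in HSCP-1 (3 UMIs each), 17.1 and 12.2 in HSCP-2, and 3.27 and 3.55 in Multi-Lin. S100a6 had 321.7 and 416.9 CPM in cMoP, 55.3 and 49.2 in Mono, and 32.5 and 31.8 in MDP. HSCP-2 had 52.9 and 33.6 CPM of S100a6, and Multi-Lin 16.4 and 15.5. The S100a8 and S100a9 levels of both sides lay near those of Eryth and Meg, and the part of free RNA in them was not tested. Each such test rests on 4 sums and 1 residual degree of freedom, and no label says that the libraries came from separate litters or days.

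Within Myelo, 4 members had a larger share of the UMIs in Myelo-4 than in Myelo-1. S100a4 did not pass the filter on low counts there. Of the 5 members tested, S100a6, S100a8, S100a9 and S100a11 were higher, none was lower, and S100a10 did not pass (log2 fold change -0.45, SE 0.46). Of all genes 18% passed and 6.99% were higher, and these clusters too may rest on the RNA. The log2 fold change was 5.64 for S100a6 (SE 0.13), 1.80 for S100a8 (SE 0.098), 1.77 for S100a9 (SE 0.099) and 1.78 for S100a11 (SE 0.11). The median of all genes was -0.45, and without TMM factors S100a8 stood at 1.38. The comparison rests on 59 Myelo-4 cells. In UMIs per cell (mean of both libraries) only S100a6 of these 4 was higher in Myelo-4, at 14.7 against 1.51 in Myelo-1. S100a8 had 1264.2 against 1879.5, S100a9 799.9 against 1212.5, and S100a11 24.1 against 36.4.

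Surface CD11b, an integrin chain that rises on maturing myeloid cells, was used to split the cells within clusters. Cells were divided at the median CD11b tag count within each cluster and library, and UMIs were summed over the CD11b-high and the CD11b-low cells. In Gran-1 and Gran-2 together, S100a8 was 10413 CPM (female) and 10723 CPM (male) in CD11b-high cells, against 6790 and 6407 CPM in CD11b-low cells. S100a9 was 5204 and 4839 CPM in CD11b-high cells, against 3344 and 2916 CPM in CD11b-low cells. The sides did not overlap for either gene. The log2 fold change was 0.68 for each (SE 0.0095 for S100a8 and 0.011 for S100a9; edgeR's adjusted p was written as 0). The libraries alone gave 0.62 (female) and 0.74 (male) for S100a8, a distance wider than that SE.

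Of the 6 members in Gran, 3 were higher in CD11b-high cells, 1 was lower and 2 did not pass, while 11.2% of all genes passed, 6.12% of them higher and 5.08% lower. S100a11 was higher by a log2 fold change of 0.09, at 1373 (female) and 1372 (male) CPM in CD11b-high and 1270 and 1307 CPM in CD11b-low cells. S100a10 was lower, at 56.5 and 58.4 CPM in CD11b-high against 72.8 and 75.5 CPM in CD11b-low cells (log2 fold change -0.37, SE 0.047, edgeR adjusted p = 2.75e-13). S100a6, at 10.3 and 8.43 CPM in CD11b-high and 9.51 and 5.74 CPM in CD11b-low cells, and S100a4, near 1 CPM, did not pass.

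Both clusters contributed, unequally. Within Gran-1 the log2 ratio of S100a8 in CD11b-high over CD11b-low cells was 0.46 (female) and 1.01 (male), and within Gran-2 it was 0.72 and 0.57. For S100a9 it was 0.13 and 0.37 within Gran-1 and 1.02 and 0.89 within Gran-2. S100a10 was lower within Gran-1 (-0.43 and -0.46) but not within Gran-2 (-0.04 and 0.45). Over single cells, the Spearman rho between the S100a8 share and the CD11b tag count was 0.35 in 832 female and 0.52 in 1541 male Gran-1 cells, and 0.52 in 355 female and 0.43 in 598 male Gran-2 cells. With the Ly-6C tag count the rho of S100a8 was 0.45 (female) and 0.55 (male) in Gran-1, above that with CD11b. In Gran-2 it was 0.30 and 0.26, below that with CD11b.

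Other measures moved with CD11b in Gran. Secondary granule genes summed to 2445 (female) and 1877 (male) CPM in CD11b-high cells, against 2111 and 1332 CPM in CD11b-low cells, with none of the 6 genes at 0. Markers of early cells summed to 109 and 98.6 CPM in CD11b-high cells, against 141 and 128 CPM in CD11b-low cells. Eosinophil markers went opposite ways in the libraries, at 226 and 55.9 CPM in CD11b-high cells, against 22.3 and 149 CPM in CD11b-low cells. CD11b-high cells had median totals of 27739.5 UMIs (female) and 22235 UMIs (male), against 25140 and 20307.5 in CD11b-low cells. Their median Ly-6C tag count was 7283 and 5189, against 3350 and 2246. With every cell thinned to 4000 UMIs, the log2 fold change of S100a8 was again 0.68 and that of S100a9 was 0.72. When cells were divided instead by the deposited log share of CD11b among the 4 antibodies, S100a8 stood at 0.08, S100a9 at 0.18 (both passed) and S100a10 at 0.13 (did not pass). The part of these markers, Ly-6C and total tags in the result was not tested beyond that. Without the library term S100a8 and S100a9 still passed, and S100a11 and S100a10 did not. DESeq2 called all 4.

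**Figure D5:**
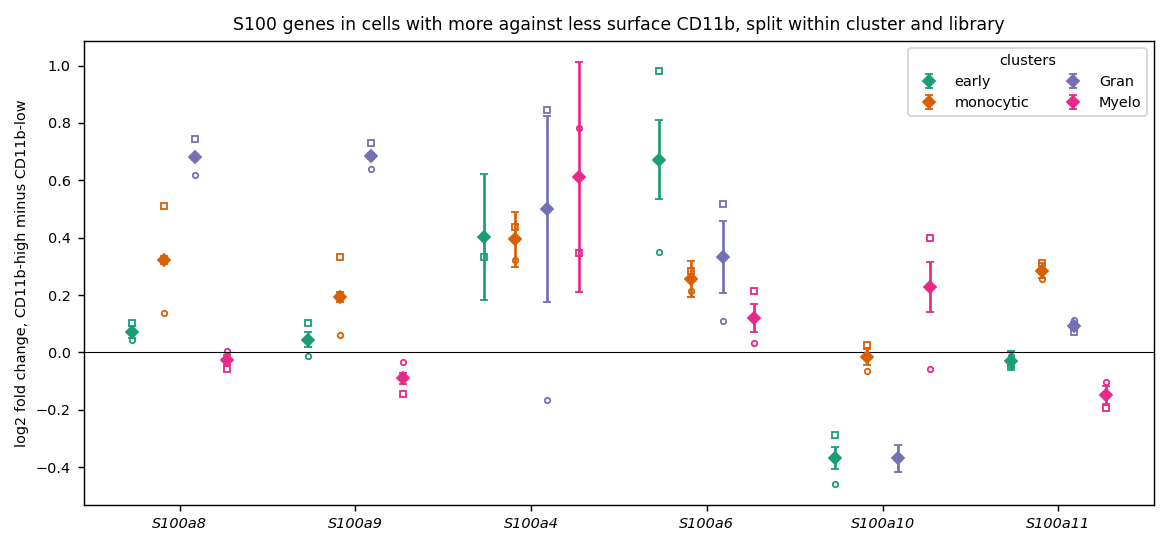
Log2 fold change of each S100 gene in CD11b-high over CD11b-low cells of the early, monocytic, Gran and Myelo clusters: diamonds give the edgeR value with its standard error as a bar, open circles the female and open squares the male library alone. S100a8 and S100a9 stand at 0.68 in Gran and at -0.03 and -0.09 in Myelo, and S100a10 stands at -0.37 in both Gran and early clusters.

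Over the summed Myelo clusters, S100a8 and S100a9 were not higher in CD11b-high cells. S100a8 was 159684 CPM (female) and 132013 CPM (male) in CD11b-high cells, against 159288 and 137351 CPM in CD11b-low cells (log2 fold change -0.03, SE 0.018, edgeR adjusted p = 0.531). S100a9 fell by 0.09 and S100a11 by 0.15 on the log2 scale, so 0 members were higher, 2 were lower and 4 did not pass, beside 2.52% of all genes passing, 1.07% higher and 1.46% lower. At an unadjusted p under 0.05, S100a6 (0.12) and S100a10 (0.23) were higher by edgeR. DESeq2 called none of the 6. With cells thinned to 4000 UMIs neither S100a9 nor S100a11 passed. Dendritic markers summed to 72.0 (female) and 55.3 (male) CPM in CD11b-high Myelo cells against 10.9 and 9.89 CPM in CD11b-low cells, with 1 of the 4 genes at 0 in all but the male CD11b-high sum. Without Myelo-3, S100a10 (0.49) and S100a6 (0.33) passed. The clusters differed for S100a8. Within Myelo-1 its log2 ratio was 0.23 in each library, against 0.02 (female) and -0.03 (male) within Myelo-2. It was 0.01 and -0.06 within Myelo-3, and 0.02 and 0.11 within Myelo-4. For S100a9 the log2 ratio was 0.08 and 0.06 within Myelo-1, and 0.00 and -0.09 within Myelo-2.

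The CD11b effect differed between Gran and Myelo when the difference itself was fitted, a model added after the values were seen. The effect in Gran minus that in Myelo was 0.72 for S100a8 (SE 0.035, edgeR adjusted p = 3.45e-12), 0.78 for S100a9, 0.25 for S100a11 and -0.59 for S100a10, beside 5.9% of all genes passing. Against the early clusters the difference was 0.62 for S100a8, 0.65 for S100a9 and 0.13 for S100a11, beside 2.85%. Against the monocytic clusters it was 0.35 for S100a8, 0.49 for S100a9, -0.36 for S100a10 and -0.20 for S100a11, beside 0.795%. These differences were not fitted with cells divided at the log share, where the Gran values of S100a8 and S100a9 were far smaller.

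In the early clusters, S100a10 was lower and S100a6 higher with CD11b, and 4 members did not pass, beside 3.33% of all genes passing (1.8% higher and 1.53% lower). S100a10 was 268.9 CPM (female) and 336.2 CPM (male) in CD11b-high cells, against 369.5 and 410.9 CPM in CD11b-low cells (log2 fold change -0.37, SE 0.040, edgeR adjusted p = 3.04e-05). S100a6 was 24.5 and 23.8 CPM in CD11b-high cells, against 19.1 and 11.8 CPM in CD11b-low cells (log2 fold change 0.67, SE 0.14). For both genes the log2 ratios were larger in size within HSCP-2 than within Multi-Lin. Multi-Lin held more of the S100a6 UMIs, 201 (female) and 240 (male), against 124 and 80 in HSCP-2. Within HSCP-2 the log2 ratio of S100a10 was -1.20 (female) and -0.84 (male), against -0.15 and -0.14 within Multi-Lin, which held most of the cells. For S100a6 it was 0.98 and 1.29 within HSCP-2, and 0.07 and 0.88 within Multi-Lin. DESeq2 did not call S100a6, nor did edgeR without the barcodes found in both libraries. Basophil and mast cell markers summed to 2170 (female) and 2608 (male) CPM in CD11b-high early cells against 1196 and 1808 CPM in CD11b-low cells, and eosinophil markers to 348 and 585 against 25.1 and 186 CPM, with none of these 7 genes at 0. Their part in these values was not tested.

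In the monocytic clusters 5 members were higher in CD11b-high cells and S100a10 did not pass (log2 fold change -0.02), beside 5.42% of all genes passing, 3.26% higher and 2.16% lower. S100a4 was 32.6 CPM (female) and 40.4 CPM (male) in CD11b-high cells, against 25.9 and 29.6 CPM in CD11b-low cells (log2 fold change 0.39, SE 0.096). S100a11 was 573.7 and 626.6 CPM in CD11b-high cells, against 479.8 and 505.3 CPM in CD11b-low cells (log2 fold change 0.29, SE 0.026). S100a6 stood at 0.26, S100a8 at 0.32 and S100a9 at 0.19. The rise was not shared by MDP, where the log2 ratio in the female and the male library was -0.98 and -0.26 for S100a4, -0.40 and -0.24 for S100a6, and -0.07 and -0.21 for S100a11. For S100a8 it was 0.17 and 0.62 within Mono, against 0.06 in each library within MDP. Over 1% of UMIs were given to S100a8 by 4 of 450 female and 8 of 602 male Mono cells.

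For S100a8 the libraries' own ratios of 0.14 (female) and 0.51 (male) lay further apart in monocytic cells than the fitted SE of 0.015. Among the 5, DESeq2 called only S100a11, and none passed with cells divided at the log share. With cells thinned to 4000 UMIs, S100a4 (0.47) and S100a6 (0.08) did not pass. Median Ly-6C tags were 13390.5 and 9721 in CD11b-high cells, against 6448 and 3883.5 in CD11b-low cells. Secondary granule genes summed to 2088 (female) and 1692 (male) CPM in CD11b-high monocytic cells, against 1984 and 1296 CPM in CD11b-low cells. Late neutrophil genes summed to 35.8 and 26.7 CPM, against 19.5 and 17.9 CPM, with none of either list at 0. The part of neutrophil RNA in the S100a8, S100a9 and S100a11 values was not tested.

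Ly-6G, a surface protein of maturing neutrophils, was used to divide the Myelo cells. Summed over the Myelo clusters, S100a10 and S100a6 were higher and S100a9 and S100a11 lower in Ly-6G-high cells, and 2 members did not pass. Of all genes 12.2% passed (5.5% higher and 6.65% lower). S100a10 was 40.5 CPM (female) and 71.7 CPM (male) in Ly-6G-high cells, against 28.1 and 38.1 CPM in Ly-6G-low cells (log2 fold change 0.76, SE 0.090, edgeR adjusted p = 7.25e-15). S100a6 was 290.3 and 213.4 CPM in Ly-6G-high cells, against 221.7 and 144.2 CPM in Ly-6G-low cells (log2 fold change 0.48, SE 0.058). S100a9 stood at -0.22, S100a11 at -0.30 and S100a8 at -0.12, of which S100a8 did not pass. With cells thinned to 4000 UMIs, S100a9 (-0.06) and S100a11 (-0.08) did not pass. The clusters differed in single cells. Spearman rho between the S100a9 share and the Ly-6G tag count was -0.14 (female) and -0.11 (male) within Myelo-1. It was 0.13 and -0.06 within Myelo-2, and 0.06 and -0.10 within Myelo-3. For S100a8 the rho was 0.02 and 0.06 within Myelo-1, 0.31 and 0.19 within Myelo-2, and 0.38 and 0.01 within Myelo-3.

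Late neutrophil genes summed to 304 (female) and 312 (male) CPM in Ly-6G-high cells against 140 and 105 CPM in Ly-6G-low cells, and dendritic markers to 73.9 and 57.4 against 11.1 and 8.92 CPM. Basophil and mast cell markers summed to 119 and 319 CPM in Ly-6G-high cells against 43.6 and 127 in Ly-6G-low cells, monocyte markers to 100.1 and 99.2 against 65.0 and 52.0 CPM, and markers of early cells to 74.5 and 139 against 52.4 and 79.3 CPM. Median CD117 tags were 141 and 143 in Ly-6G-high cells against 114 and 77 in Ly-6G-low cells. Their part in the S100a10 and S100a6 values was not tested. Without Myelo-3 the log2 fold changes were 1.23 for S100a10 and 0.85 for S100a6. In the 5 antibody splits, S100a8 and S100a9 in Gran were the only member calls that held without the library term.

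The table held 12 other symbols of the S100 name. S100a13 had 33393 UMIs and S100a1 29952, S100pbp had 965, 6 others (S100a3, S100a5, S100a2, S100a7a, S100b and S100a14) had 2 to 49, and S100a16, S100g and S100z had 0. S100a1, a calcium sensor best known from muscle, was highest in Gran-2 at 246.3 CPM (female) and 254.3 CPM (male), against 47.0 and 51.3 CPM in Myelo-4. S100a13, linked to the export of growth factors, had its highest mean CPM in Myelo-4, at 329.0 and 224.5 CPM, resting on 98 UMIs. These values overlapped those of Myelo-1, at 200.4 to 224.9 CPM. In mean UMIs per cell S100a13 was highest in Myelo-1, at 4.88 against 1.64 in Myelo-4. S100a1 and S100a13 overlap by 98 bases in the annotation, and whether counting used the strand is not stated in the labels. In Gran both were higher in CD11b-high cells (log2 fold change 0.13 and 0.12), and S100pbp did not pass.

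Of 22 genes of S100 partners and of the calprotectin pathway (receptors, annexins and the NADPH oxidase), 19 passed the filter on low counts in Gran-2 against early, where 13 were higher and 4 lower (median log2 fold change 0.35, against -0.04 for all genes). Of all genes tested there, 31.8% were higher and 34.5% lower. The oxidase genes were higher in Gran-2: Cybb by 3.19, Ncf1 by 2.64, Ncf4 by 2.33 and Cyba by 2.14 on the log2 scale. The calprotectin receptor gene Tlr4 was higher by 2.25 but stood at 6.52 (female) and 5.99 (male) CPM in Gran-2. Anxa1, the partner of S100a11, was higher by 1.69, and Anxa2, the partner of S100a10, was lower by a log2 fold change of -0.27. Ager, which encodes RAGE, Cd36 and Mcam did not pass the filter.

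In Gran-2 against monocytic, 9 of 19 of these genes were higher and 7 lower (median 0.13, against -0.02 for all genes), beside 27% and 27.8% of all genes, with Ahnak, a large scaffold protein gene, at -4.18 and Anxa2 at -1.58. In Myelo-4 against Myelo-1, 10 of 18 were higher and 3 lower (median 0.77, against -0.45), beside 6.99% and 11% of all genes. Anxa1 rose by a log2 fold change of 2.74, Cybb by 2.27 and Anxa2 by 2.11. With CD11b in Gran, 9 of 19 were higher, among them Ahnak by 1.41, Cybb by 0.54 and Ncf4 by 0.37, and 2 were lower, Trp53 (-0.16) and Cacybp (-0.09) (median 0.10, against -0.01), beside 6.12% and 5.08% of all genes. With CD11b in Myelo 2 of 18 were higher, Cd69 (0.44) and Cybb (0.20), and 0 lower (median -0.02), beside 1.07% and 1.46% of all genes.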

How the data were processed

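The authors deposited raw UMI counts per gene and cell, cluster labels, and the natural log of each antibody's share of the 4 tag counts of a cell (equal to a recomputed log share in 44528 of 44528 values, to within 1e-06). Antibody tag counts were deposited as raw counts. Per the submitters' processing notes, Cell Ranger 2.1.0 and mm10 were used. The annotation and how cells were called, clustered and cleared of doublets were not given in the sources used here. Symbols were found for 28339 of 28692 gene IDs. UMIs were summed per library and class or antibody side, filtered by filterByExpr and fitted with edgeR 4.0.16 (TMM, quasi-likelihood, library as a block because both sides of a split come from 1 library; Benjamini-Hochberg over all genes tested) in R 4.3.3. SE is the log2 fold change divided by the root of F. DESeq2 1.42.0 was an alternative. The fits were tested on simulated data. With 2 libraries, precision is limited. Named were the members, all S100 symbols, a partner list and the 5 genes most alike each member. The members and lists were chosen with earlier results of these data known.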

Additional observations from a re-analysis of the deposited data

Results flagged for a closer look

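The log2 effect of CD11b (CD11b-high minus CD11b-low cells) differed between cluster classes by an interaction term in edgeR, with 8 sums per fit. Gran minus Myelo gave 0.72 for S100a8, 0.78 for S100a9, 0.25 for S100a11 and -0.59 for S100a10. Gran minus early gave 0.62 for S100a8, 0.65 for S100a9 and 0.13 for S100a11. Gran minus monocytic gave 0.35 for S100a8, 0.49 for S100a9, -0.36 for S100a10 and -0.20 for S100a11. The Gran minus monocytic value of S100a8 did not pass without the filter on low counts (0.37). With cells thinned to 4000 UMIs, the S100a10 and S100a11 values did not pass. S100a6 and S100a4 did not pass in any of the 3 fits. None of the 3 was run with cells divided at the log share.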

How the results depend on the processing

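Limits: 2 libraries, 1 residual degree of freedom, clusters made by steps not given here, and few cells in Myelo-4, DC and HSCP-1. Alternatives without the TMM factors, without Myelo-3 and the fits of differences between classes were chosen after seeing the data. With 1 library left out no residual degree of freedom remains, so those values have no test.

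DESeq2 called 3758 genes for Gran-2 against early, 2488 against monocytic, 1217 against Gran-1, 3259 for monocytic against early and 745 for Myelo-4 against Myelo-1. For CD11b it called 240 genes in Gran, 6 in Myelo, 38 in early and 35 in monocytic clusters, and for Ly-6G in Myelo 136. With cells thinned to 4000 UMIs the counts were 4582, 2789, 1600 and 4382 for the first 4 of these comparisons, 311, 21 and 107 for CD11b in Gran, Myelo and monocytic clusters, and 238 for Ly-6G. Without the library block, which pairs the sides within a library, 1865 genes were called for Gran-2 against Gran-1. For CD11b the unpaired fits called 9 in Gran, 4 in Myelo, 18 in early and 12 in monocytic clusters, and for Ly-6G 22. Without a filter on low counts, CD11b gave 480 calls in Gran and 149 in Myelo. Without shared barcodes it gave 132 in Myelo, 236 in early and 357 in monocytic clusters. Divided at the log share, it gave 269 in Gran and 18 in monocytic clusters. The upper against the lower tertile gave 400 in Myelo and 594 in early clusters. Ly-6G gave 784 without Myelo-3. Differences of the CD11b effect called 159 (Gran minus Myelo), 88 (minus early) and 13 genes (minus monocytic) when thinned, and 219 (minus early) and 30 (minus monocytic) without the filter. With S100a8 and S100a9 left out of the total, Myelo-4 held 3865 CPM of S100a6 and 6309 CPM of S100a11. Without thinning, 84.6% (female) and 76.3% (male) of cMoP cells had a S100a4 UMI, and 94.5% and 93.4% of HSCP-2 cells a S100a10 UMI.

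Signs turned for values that had not passed, except S100a10 in Gran (0.13) and S100a4 (-0.048), S100a6 (-0.18) and S100a11 (-0.030) in monocytic clusters, all at the log share; the cause was not tested. At the log share S100a4 in Gran was -0.32 and S100a11 in early clusters 0.027. Thinned, S100a10 in Myelo-4 against Myelo-1 was 0.026, CD11b in Myelo gave 0.029 for S100a8 and -0.0087 for S100a6, Ly-6G gave 0.016 for S100a8, and S100a10 in monocytic clusters was 0.047. Thinned, S100a4 stood at -0.94 for Gran minus early and -0.86 for Gran minus monocytic. S100a8 in Myelo by CD11b was 0.0031 without TMM factors and 0.043 without Myelo-3. S100a10 in monocytic clusters was 0.037 between tertiles. With each library left out, CD11b gave -0.17 to 0.85 for S100a4 in Gran, -0.057 to 0.0036 for S100a8 and -0.060 to 0.40 for S100a10 in Myelo, -0.012 to 0.10 for S100a9 in early, and -0.064 to 0.025 for S100a10 in monocytic clusters.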
